A study of Mus musculus with 24 samples.

Results

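The genes described here copy the DNA of a cell before it divides, or make the nucleotides for that copy. They are 44 symbols taken by name from a table of 52997 gene symbols, and all 44 were found and passed the filter on low counts, which kept 16263 genes. RNA was measured in 24 libraries of about 1000 sorted cells each, from C57BL/6 mice, 8 weeks old. Hindlimb muscle was either left uninjured or taken 1 day after cardiotoxin, a venom toxin that kills muscle fibers, had been injected. From each condition 4 populations were sorted, with 3 libraries per group: CD45+ hematopoietic cells, CD31+ endothelial cells, mesenchymal stromal cells (MSC, sorted as Sca1+ PDGFRa+ cells without CD45 and CD31) and muscle stem cells (MuSC, sorted as Vcam1+ cells without CD45, CD31 and Sca1). No group carried a transgene or a second treatment according to the labels. Whether same-numbered libraries shared a mouse is not stated in the labels, so p-values measure only the spread between these libraries.

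Before a cell enters S phase, its replication origins are licensed: the origin recognition complex with Cdc6 and Cdt1 loads the ring-shaped MCM helicase, and geminin (Gmnn) holds Cdt1 in check. Origins then fire when Cdc45 and the GINS complex join the helicase, after which primase and the DNA polymerases copy each strand behind it, held on DNA by the sliding clamp PCNA. Ribonucleotide reductase, thymidine kinase and thymidylate synthase supply the deoxynucleotides. Satellite cells of resting muscle are textbook examples of quiescent cells, and many of these genes are targets of E2F transcription factors, which are held back by the Rb family in cells that do not divide.

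Total counts per library ranged from 2301000 to 7650000, so that 3 counts equalled 0.389 to 1.02 CPM, a count scaled to a fixed library total. All levels below are CPM on library sizes scaled by TMM, and every test is edgeR's quasi-likelihood test with Benjamini-Hochberg adjustment over the 16263 genes, called at an adjusted p below 0.05. Defining markers followed the sort labels: the endothelial list was at 10950 to 14220 CPM in CD31+ libraries and at most 149 CPM elsewhere, and the leukocyte list was at 25030 to 33290 CPM in CD45+ libraries. Some libraries held markers of another population. The leukocyte list summed to 252, 11.6 and 10.5 CPM in the 3 injured CD31+ libraries. The stromal list of 8 genes summed to 5375, 4652 and 4848 CPM in uninjured MuSC and to 1956, 2534 and 2735 CPM in injured MuSC, beside 154100 to 204900 CPM in uninjured and 37580 to 54840 CPM in injured MSC, so all 6 MuSC libraries held it. Of its genes, Pdgfra was uneven, with 0.298, 48.8 and 25.4 CPM in injured MuSC. The satellite cell list was at 5540 to 6093 CPM in uninjured and, lower in every library, at 3871 to 4727 CPM in injured MuSC. Injured CD45+ libraries had 1027 to 1288 CPM of the stromal list, against 435 to 556 CPM in uninjured ones. The pericyte and smooth muscle list summed to 1137 to 1960 CPM in uninjured and 484 to 972 CPM in injured MuSC. In CD31+ libraries it summed to 562 to 794 CPM before and 300 to 487 CPM after injury. The muscle fiber list summed to 507 to 543 CPM in uninjured and 199 to 254 CPM in injured MuSC. In MSC it summed to 147 to 426 CPM before and 3.2 to 14.8 CPM after injury. The part of these markers in the results was not tested.

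After injury the replication genes rose in MSC and MuSC, rose in part in CD31+ cells and fell in part in CD45+ cells. In MSC all 44 rose (18.3% of all genes tested rose), 42 of them more than 2-fold, where 10.6% of all genes did. In MuSC all 44 rose as well (21.4% of all genes), 43 of them more than 2-fold (13% of all genes). In CD31+ cells 16 rose and none fell (14.1% and 9.3% of all genes), and in CD45+ cells none rose and 21 fell (16% and 18.5%). At an unadjusted p below 0.05 only Cdc6 was lower in CD31+ cells, and none of the 44 was higher in CD45+ cells. DESeq2 called 1 gene lower in CD31+ cells and 0 higher in CD45+ cells. The 44 had a median log2 fold change of 3.18 (MSC), 2.95 (MuSC), 0.56 (CD31+) and -0.966 (CD45+), beside medians of -0.225, -0.0378, -0.0357 and -0.12 over all genes.

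The summed level of the 44 genes showed the same order. In MSC it was 782, 798 and 748 CPM in the uninjured libraries and 7913, 4525 and 6028 CPM in the injured ones. In MuSC it went from 1219, 1174 and 1073 CPM to 10410, 8168 and 8678 CPM. In CD31+ cells it went from 1002, 1015 and 1035 CPM to 1699, 1475 and 1500 CPM. In CD45+ cells it went from 1375, 1365 and 1393 CPM to 762, 643 and 971 CPM. No injured library overlapped with an uninjured library of its own population in any of the 4 sums, and the spread between injured MSC libraries (SD 1700) was the widest. In bulk samples of this kind, more cells in S phase and more RNA of these genes per cell cannot be told apart.

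**Figure D1:**
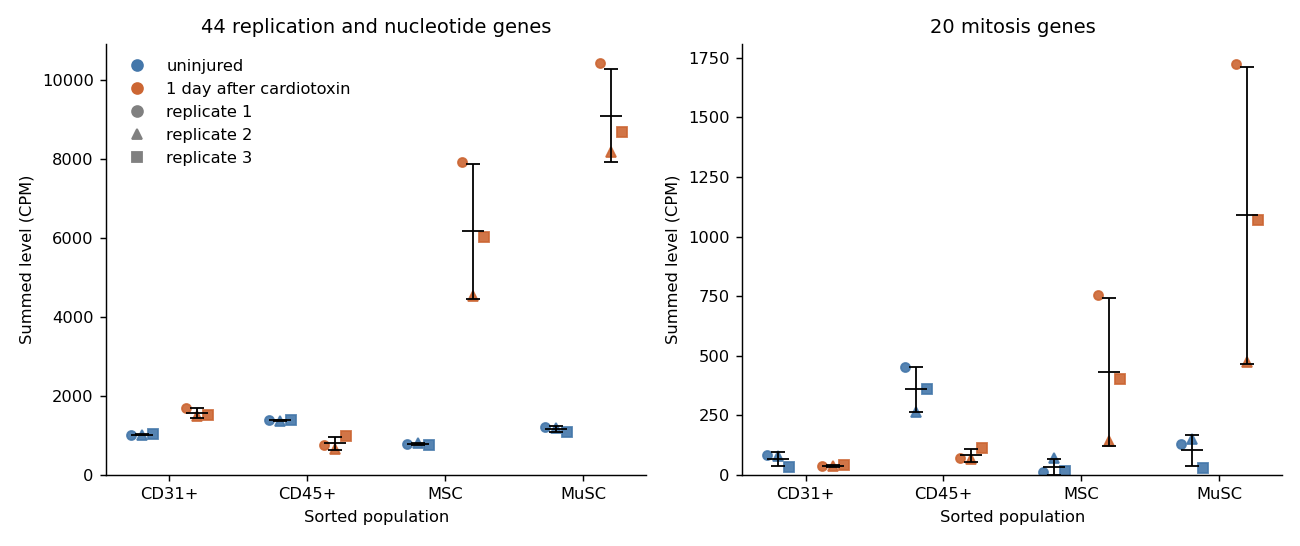
Summed CPM of the 44 replication and nucleotide genes (left) and of 20 mitosis genes (right) in each library, by sorted population and condition, with linear axes that start at 0. Points are libraries, the bar and whiskers are the mean and SD of 3 libraries. The injured MSC and MuSC libraries lie between 4525 and 10410 CPM on the left, above all other libraries, and the same libraries spread from 140 to 1722 CPM on the right.

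Since the members moved together in MSC and MuSC, the sequences just upstream of them are shown. RefSeq promoter windows (assembly GRCm38.p6, 250 bases before to 50 bases after the start) were at hand for 36 of the 44 genes, and Gmnn, Mcm4, Gins1, Gins2, Gins4, Rfc2, Prim2 and Pole had none in the table used here. The windows were searched on both strands for the letters of an E2F consensus, TTTNNCGC with each N a C or a G. At least 1 match stood in the windows of 14 of the 36 genes (38.9%), against 28.1% of 32 other replication genes, 2.6% of the 27025 genes in the table and 4.39% of the 11347 tested genes that the table holds. The median GC content of the windows was 60.1% in the members and 60.3% in the genes tested. The windows of 3 subunits of the MCM helicase, each with more than 1 match, are given in full with the E2F letters in capitals. The windows lie at chr1:20820263-20820562 on the minus strand (Mcm3), chr8:75109259-75109558 on the plus strand (Mcm5) and chr1:128359656-128359955 on the minus strand (Mcm6). In Mcm5, and at 1 of the 2 places in Mcm6, the capitals run over overlapping matches on opposite strands.
Mcm3: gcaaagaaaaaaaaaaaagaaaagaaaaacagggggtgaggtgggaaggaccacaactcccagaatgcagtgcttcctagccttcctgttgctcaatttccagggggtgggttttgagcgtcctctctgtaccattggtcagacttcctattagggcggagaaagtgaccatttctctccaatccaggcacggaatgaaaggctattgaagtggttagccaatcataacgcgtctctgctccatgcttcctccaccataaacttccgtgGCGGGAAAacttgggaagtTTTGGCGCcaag
Mcm5: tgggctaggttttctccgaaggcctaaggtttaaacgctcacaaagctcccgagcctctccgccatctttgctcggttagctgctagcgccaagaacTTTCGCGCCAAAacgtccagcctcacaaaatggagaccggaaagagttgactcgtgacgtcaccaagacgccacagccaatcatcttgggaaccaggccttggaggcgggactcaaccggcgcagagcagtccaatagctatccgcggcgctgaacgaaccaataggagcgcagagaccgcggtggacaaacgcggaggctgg
Mcm6: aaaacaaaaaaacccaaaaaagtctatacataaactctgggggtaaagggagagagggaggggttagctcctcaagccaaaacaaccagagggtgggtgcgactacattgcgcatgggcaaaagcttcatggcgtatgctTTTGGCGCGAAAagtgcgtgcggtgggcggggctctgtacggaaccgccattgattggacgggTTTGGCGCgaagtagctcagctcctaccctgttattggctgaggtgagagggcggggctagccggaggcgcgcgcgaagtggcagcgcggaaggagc

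The first match in each of the other 11 genes is shown in a window of 28 bases, again 5′ to 3′ on the strand of the gene with the E2F letters in capitals, so that the shared core can be compared. Mcm7 has a second match that is not shown.
Orc1: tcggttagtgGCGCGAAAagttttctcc
Cdc6: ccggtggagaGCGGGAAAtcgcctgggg
Cdt1: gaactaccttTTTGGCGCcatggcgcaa
Mcm7: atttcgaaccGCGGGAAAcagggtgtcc
Gins3: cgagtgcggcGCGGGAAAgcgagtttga
Rfc3: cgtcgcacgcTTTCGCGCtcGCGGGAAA
Pola1: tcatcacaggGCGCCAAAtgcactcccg
Pole2: gtcggcggtgGCGCCAAAtcgcgaacat
Pold1: cggcggcgtatcttgtgGCGGGAAAagc
Lig1: gccaaagtgcGCGCGAAAtctgtgtggc
Uhrf1: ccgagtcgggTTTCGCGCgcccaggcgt

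Mcm10, whose rise in MSC ranked second among the 44, had no whole E2F match in its window at chr2:5012742-5013041 (minus strand). The window ends in tttggcg, the E2F consensus without its last letter, and the next base was not read. The Mcm10 window is shown with its 3 CCAAT boxes in capitals.
Mcm10: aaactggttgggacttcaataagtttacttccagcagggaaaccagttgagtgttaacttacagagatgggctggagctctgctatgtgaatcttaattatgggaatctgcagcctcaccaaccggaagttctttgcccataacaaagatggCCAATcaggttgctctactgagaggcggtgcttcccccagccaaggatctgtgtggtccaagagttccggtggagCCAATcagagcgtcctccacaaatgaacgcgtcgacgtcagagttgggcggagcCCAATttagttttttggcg
CCAAT boxes, in either direction, stood in 63.9% of the member genes with a window, in 42.1% of the genes tested, in 43.8% of other replication genes and in 88.2% of mitosis genes. The CHR letters TTTGAA, known from genes of the G2 and M phases, stood in 13.9% of the members, in 14.8% of the genes tested and in 70.6% of 17 mitosis genes. The 14 genes with an E2F match had a median log2 fold change of 3.61 in MSC and 3.20 in MuSC. The 22 genes with a window and no match had 2.76 and 2.93, with ranges that lay over each other (1.99 to 6.58 and 0.846 to 6.33 in MSC). A match is a run of letters and not a measured binding site.

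The licensing genes, which load the helicase, held some of the largest changes. All 11 rose in MSC and in MuSC, with median log2 fold changes of 4.57 and 3.88. Mcm5, a helicase subunit, was at 6.54, 14.3 and 13.3 CPM in uninjured MSC and at 660, 397 and 526 CPM in injured MSC. That is a log2 fold change of 5.55 (SE 0.288, adjusted p = 4.71e-12), and no injured library came near an uninjured one. In MuSC, Mcm5 went from 40.7, 48.5 and 32.0 CPM to 706, 663 and 623 CPM (log2 4.05, SE 0.26, adjusted p = 1.01e-10). Mcm3, whose adjusted p was the smallest of the 44 genes in both populations, rose from 19.8, 16.1 and 22.2 CPM to 564, 377 and 444 CPM in MSC (log2 4.57, SE 0.184, adjusted p = 5.99e-15). In MuSC it rose from 53.6, 49.5 and 37.7 CPM to 771, 676 and 618 CPM (log2 3.88, SE 0.175, adjusted p = 4.94e-14). The other helicase subunits Mcm2, Mcm4, Mcm6 and Mcm7 rose by 3.20 to 5.33 on the log2 scale in MSC and by 2.62 to 4.18 in MuSC.

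The loading factors were low in resting MSC and MuSC. Cdc6, which brings the helicase to the origin, was at 3.85, 3.14 and 3.55 CPM in uninjured MSC and at 116, 50.9 and 86.8 CPM after injury. In MuSC it went from 5.03, 5.08 and 2.55 CPM to 131, 127 and 109 CPM. Gmnn, the inhibitor of licensing, went from 0.838, 3.14 and 0.666 CPM to 83.7, 34.5 and 49.2 CPM in MSC, and from 0.387, 4.07 and 2.16 CPM to 83.8, 63.3 and 79.0 CPM in MuSC. Its log2 fold change of 5.24 (SE 0.475, adjusted p = 6.89e-09) was the largest of the 44 in MuSC. It rests on 25 counts in the 3 uninjured MuSC libraries together. The estimates for Cdc6 (4.88), Uhrf1 (4.88) and Rrm2 (4.79) in MuSC lay within 1 SE of it. Cdt1, the target of Gmnn, gained 4.57 on the log2 scale in MSC and 3.24 in MuSC. Orc6, a subunit of the origin recognition complex, changed least in this role: it was already at 68.2, 70.5 and 96.8 CPM in uninjured MuSC and reached 160, 138 and 151 CPM (log2 0.927, SE 0.197, adjusted p = 0.000584). Orc1, the largest subunit of that complex, stayed under 19 CPM in every library.

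**Figure D2:**
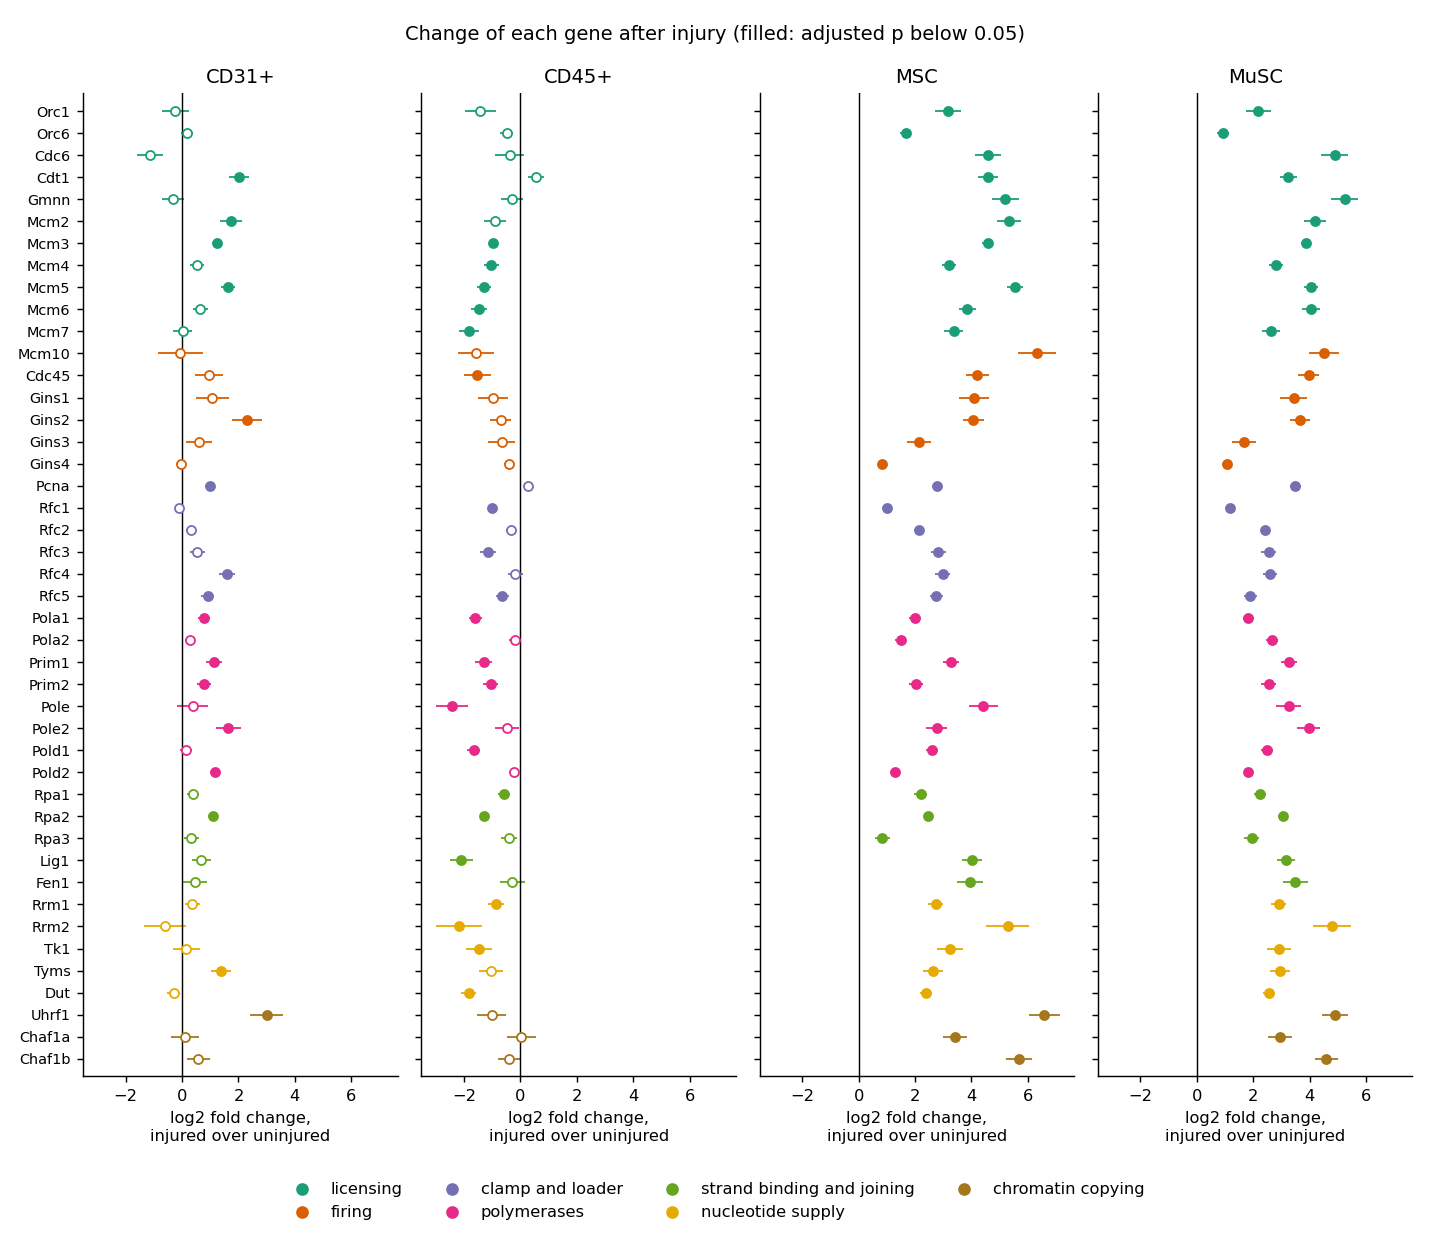
Log2 fold change of each of the 44 genes, injured over uninjured, in the 4 populations, with the SE as a horizontal line and colors by role. Filled points passed the test (adjusted p below 0.05). All points are filled and to the right of 0 in MSC and MuSC, 16 are filled in CD31+ cells, and 21 are filled and to the left of 0 in CD45+ cells.

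The 6 firing genes also rose in both populations. Mcm10, which helps to switch the helicase on, was at 0.168, 0.448 and 0.222 CPM in uninjured MSC, below what 3 counts are worth, and at 33.3, 13.9 and 23.7 CPM after injury. Its log2 fold change of 6.33 (SE 0.679, adjusted p = 6.97e-08) rests on 4 counts in the 3 uninjured libraries together. Cdc45 rose from 6.70, 6.50 and 3.998 CPM to 155, 70.1 and 96.5 CPM in MSC, and from 7.55, 14.6 and 18.3 CPM to 247, 190 and 187 CPM in MuSC. The 4 GINS subunits, which act as 1 complex, did not change by like amounts. Gins1 and Gins2 gained 4.08 and 4.06 on the log2 scale in MSC, Gins3 gained 2.13 and Gins4 only 0.846 (SE 0.165, adjusted p = 0.000214). Gins4 was the most even of them before injury, at 30.4 to 46.9 CPM in all 12 uninjured libraries. Of the exon bases of Gins2, 67.3% are shared with Gse1 on the other strand, and without strand in these counts the reads of both genes cannot be told apart.

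Pcna, the sliding clamp, was at 29.3, 30.5 and 30.2 CPM in uninjured MSC and at 268, 149 and 196 CPM after injury (log2 2.77, SE 0.179, adjusted p = 2.32e-11). In MuSC it went from 26.5, 33.6 and 24.5 CPM to 351, 276 and 315 CPM (log2 3.49, SE 0.184, adjusted p = 7.21e-13). The uninjured levels lay close together in both populations, and all injured libraries were several times above them. Of the loader subunits, Rfc2 to Rfc5 gained 2.14 to 2.98 on the log2 scale in MSC and 1.90 to 2.59 in MuSC. The large subunit Rfc1 gained 1.00 and 1.16, from 38.8 to 44.4 CPM in the 6 uninjured libraries of both populations to 68.0 to 99.97 CPM. Copies of Pcna elsewhere in the genome (the pseudogenes Pcna-ps1 and Pcna-ps2) could share reads with it, as could Tyms-ps with Tyms, and how the authors treated such reads is not given in the sources used here.

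Of the polymerase genes, Pole, the catalytic subunit of the leading strand polymerase, changed most in MSC, from 1.34, 3.14 and 1.33 CPM to 53.0, 33.5 and 37.2 CPM (log2 4.43, SE 0.521, adjusted p = 3.66e-07). Its partner Pole2 changed most in MuSC, from 1.16, 3.73 and 5.30 CPM to 56.2, 49.5 and 52.7 CPM (log2 3.96, SE 0.412, adjusted p = 4.45e-08). Pold2, a subunit of the lagging strand polymerase, had the smallest gains of the 8 genes, 1.28 in MSC and 1.81 in MuSC, from 59.4 to 94.9 CPM before injury. The primase subunits Prim1 and Prim2, which lay down the starting RNA, gained 3.27 and 2.04 in MSC and 3.26 and 2.54 in MuSC.

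Single-strand binding and strand joining followed the same course. Lig1, the ligase that seals Okazaki fragments, rose from 10.1, 6.27 and 4.89 CPM to 167, 68.3 and 114 CPM in MSC and from 17.8, 23.4 and 11.98 CPM to 194, 126 and 147 CPM in MuSC. Rpa1 and Rpa2, subunits of the protein that coats single strands, gained 2.20 and 2.47 in MSC and 2.24 and 3.06 in MuSC. The third subunit, Rpa3, gained 0.846 in MSC (SE 0.254, adjusted p = 0.00949), from 20.3, 26.2 and 30.4 CPM to 56.8, 36.8 and 44.2 CPM. In MuSC it gained 1.95 (SE 0.265, adjusted p = 2.49e-06). Fen1, the flap nuclease, stayed below 26 CPM in all libraries, and 84.2% of its exon bases overlap Tmem258 or Gm10143 on the other strand.

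In injured MSC and MuSC the genes that spread widest between libraries were nucleotide genes, Rrm2 and Tk1. Rrm2, the regulated subunit of ribonucleotide reductase, was at 2.18, 7.62 and 5.55 CPM in uninjured MSC and at 356, 66.8 and 154 CPM after injury (log2 5.28, SE 0.76, adjusted p = 2.46e-05). In MuSC it went from 41.2, 15.6 and 15.1 CPM to 936, 430 and 671 CPM (log2 4.79, SE 0.681, adjusted p = 2.38e-05). Replicate 1 was the highest and replicate 2 the lowest injured library in both populations, with a coefficient of variation of 77.3% in injured MSC, the highest of the 44. The larger subunit Rrm1 rose by 2.73 and 2.89 on the log2 scale, and Tk1, thymidine kinase, by 3.25 and 2.91. Tyms, which makes thymidylate from deoxyuridylate, rose from 20.4 to 22.1 CPM to 175, 95.3 and 127 CPM in MSC and from 26.8 to 28.3 CPM to 256, 171 and 211 CPM in MuSC. Dut, which keeps uracil out of the nucleotide pool, gained 2.37 and 2.57.

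The 3 chromatin copying genes had the highest median change of any role in both populations, 5.68 in MSC and 4.59 in MuSC. Uhrf1, which carries DNA methylation over to the new strand, had the largest rise of all 44 genes in MSC, from 1.68, 2.02 and 0.666 CPM to 183, 104 and 142 CPM (log2 6.58, SE 0.552, adjusted p = 1.07e-08). Chaf1b, a subunit of the chaperone that places histones on new DNA, rose from 2.01, 2.46 and 1.33 CPM to 148, 52.0 and 102 CPM in MSC and from 11.4, 8.81 and 3.73 CPM to 236, 148 and 190 CPM in MuSC. Its partner Chaf1a gained 3.41 and 2.95, with 52.5% of its exon bases shared with Ubxn6 on the other strand.

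Between these 2 populations the changes had the same direction but not always a like size. The difference, MSC minus MuSC, ran from -1.2 to 1.82 on the log2 scale (median 0.308 over the 44 genes). MSC and MuSC share no library, and the 44 log2 fold changes had a Pearson correlation of 0.875 across genes, beside 0.505 over all 16263 genes; genes are not independent replicates and share libraries and depth. The difference in change passed the test for 2 of the 44, no larger a share than among all genes (7.73%). An unadjusted p below 0.05 was found for 13 of the 44, and the share of all genes at that cutoff was not determined. Mcm5 gained more in MSC, by 1.51 on the log2 scale (SE 0.353, adjusted p = 0.00979), from a lower start. Pola2, the accessory subunit of the polymerase that works with primase, gained less in MSC, with a difference of -1.17 (SE 0.282, adjusted p = 0.0107). It went from 34.4, 28.4 and 27.99 CPM to 111, 67.8 and 77.1 CPM in MSC and from 22.1, 13.2 and 16.7 CPM to 124, 99.2 and 110 CPM in MuSC. The call for Pola2 was lost without replicate 1 or 2 of uninjured CD31+, replicate 3 of injured CD45+ or any of the uninjured MSC libraries, with adjusted p up to 0.138. The number of genes called ran from 2 to 7 when single libraries were left out, and the highest count was without replicate 2 of injured CD45+. A p that misses the threshold does not show that the other 42 genes changed alike.

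**Figure D3:**
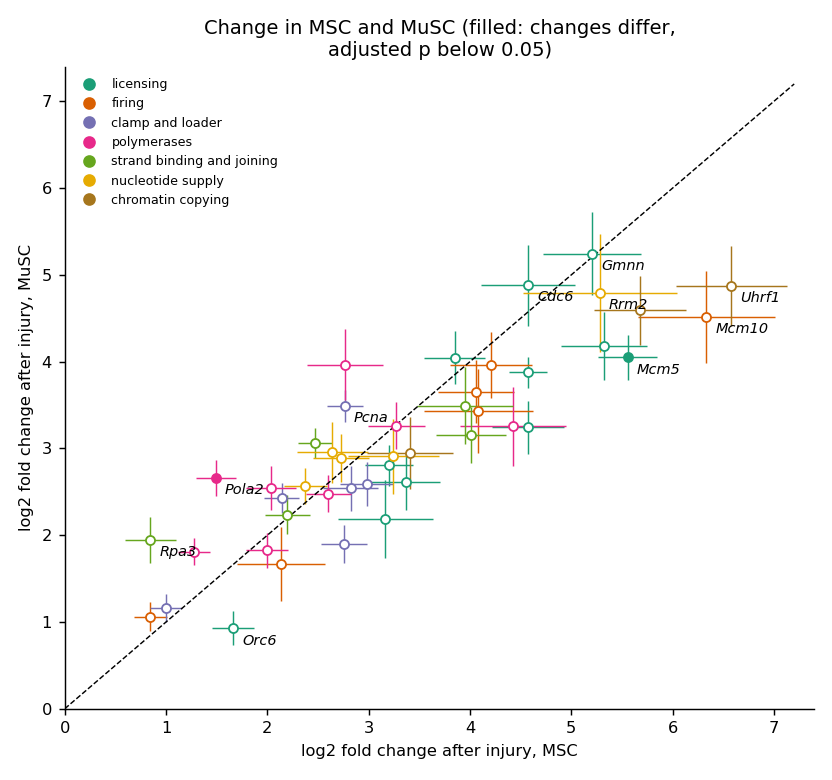
Log2 fold change after injury in MSC (x axis) and MuSC (y axis) of the 44 genes, with SE in both directions, colors by role and the line of equal change dashed. Filled points are Mcm5 and Pola2, whose changes differed between the populations (adjusted p below 0.05), and the other points lie on both sides of the line.

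Within several groups many of the 44 genes were ordered alike. In injured MSC every one of the 44 was highest in replicate 1, next in replicate 3 and lowest in replicate 2, an order held by 19.5% of all genes tested. In injured MuSC 24 of the 44 had this order (15.9% of all genes), and 36 were highest in replicate 1 (37% of all genes). In injured CD45+ cells 37 of the 44 were highest in replicate 3 (35.6% of all genes). In uninjured MSC 22 were highest in replicate 2 (29.1% of all genes). In CD31+ cells 23 were highest in replicate 2 before injury (32.8% of all genes) and 25 in replicate 1 after it (33.5%). The summed mitosis genes moved with it: 756, 140 and 400 CPM in injured MSC and 1722, 473 and 1071 CPM in injured MuSC. The median coefficient of variation over the 44 genes was 26.4% in injured MSC and 13.2% in injured MuSC. All 44 calls in MSC and all 44 in MuSC held when any single library was left out. Without the 2 injured MuSC libraries with most Pdgfra, 44 were also called in MuSC, but 1 injured library is then left and is assumed to vary like the other groups.

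CD31+ cells changed less and unevenly. Of the 16 genes that rose, 12 rose more than 2-fold (6.45% of all genes). They came from every role: Cdt1, Mcm2, Mcm3 and Mcm5 in licensing, Gins2 in firing, Pcna, Rfc4 and Rfc5, 5 polymerase genes, Rpa2, Tyms and Uhrf1. Uhrf1 changed most, from 2.55, 2.54 and 0.590 CPM to 19.4, 15.5 and 12.5 CPM (log2 3.00, SE 0.584, adjusted p = 0.000677). Mcm3 went from 48.7, 58.2 and 44.8 CPM to 129, 107 and 119 CPM (log2 1.23, SE 0.163, adjusted p = 3.53e-06), which was the smallest adjusted p of the 44 in these cells. Pold2 went from 35.9, 34.7 and 42.4 CPM to 84.8, 87.3 and 79.4 CPM (log2 1.15, SE 0.16, adjusted p = 6.58e-06), and Tyms from 23.6, 38.1 and 32.1 CPM to 81.7, 80.3 and 81.0 CPM (log2 1.38, SE 0.342, adjusted p = 0.00515). In these genes all injured libraries lay above all uninjured ones.

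Other genes of the same complexes did not pass in CD31+ cells. Mcm7, a helicase subunit beside Mcm3 and Mcm5, was at 32.7, 41.5 and 36.0 CPM before and 40.1, 30.3 and 41.0 CPM after injury (log2 0.0213, SE 0.335). Cdc6 was at 10.6, 11.3 and 10.02 CPM in uninjured and at 5.85, 3.69 and 4.92 CPM in injured cells. Its libraries did not overlap, and its log2 fold change of -1.13 had an adjusted p of 0.0853, which fell below 0.05 without replicate 1 or replicate 3 of injured CD45+. Rrm2 was at 16.1, 12.7 and 11.5 CPM and then at 10.8, 8.54 and 7.30 CPM (log2 -0.61, SE 0.744, adjusted p = 0.608). By overlap of libraries, 20 of the 44 lay higher and 3 lower after injury (19.6% and 17.6% of all genes). The lower ones were Cdc6, Rrm2 and Dut. The count of 16 became 15 without replicate 1 of injured CD31+, the library with most leukocyte markers. Prim2 was called at an adjusted p of 0.0319, and lost the call without replicate 2 of uninjured CD31+ (0.167) or without replicate 1 or 2 of injured CD31+ (0.154 and 0.052). Rfc5 and Pole2 lost it without replicate 1 of uninjured CD31+ (0.0646 and 0.0511), and Pola1 without replicate 2 (0.0656). With the other common scaling (RLE) the median of all genes in CD31+ cells moved by -0.11 on the log2 scale and 15 genes were called.

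In CD45+ cells the called changes went the other way. The 21 genes that fell came from all roles except chromatin copying, and 16 fell more than 2-fold (13.8% of all genes). Pole had the largest fall, from 10.7, 16.8 and 4.29 CPM to 1.26, 0.980 and 3.50 CPM (log2 -2.43, SE 0.565, adjusted p = 0.00178). Pold1, the catalytic subunit of the lagging strand polymerase, had the smallest adjusted p and fell from 48.9, 55.2 and 78.4 CPM to 20.2, 16.4 and 21.2 CPM (log2 -1.65, SE 0.225, adjusted p = 4.46e-06). Rpa2 fell from 41.5, 45.4 and 50.4 CPM to 16.4, 19.4 and 21.0 CPM (log2 -1.27, SE 0.175, adjusted p = 5.08e-06). Mcm7 fell from 68.6, 74.0 and 57.2 CPM to 19.5, 4.90 and 31.8 CPM (log2 -1.83, SE 0.352, adjusted p = 0.000488), and Dut from 20.2, 20.5 and 19.2 CPM to 5.81, 2.69 and 8.18 CPM (log2 -1.83, SE 0.265, adjusted p = 9.8e-06). In all of these every injured library lay below every uninjured one, as it did for 25 of the 44 genes (22.9% of all genes).

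Pcna was not called in CD45+ cells. It was at 45.1, 43.96 and 47.5 CPM before and at 52.0, 45.6 and 65.9 CPM after injury (log2 0.26, SE 0.175, adjusted p = 0.268). Cdt1 had the highest estimate of the 44 in these cells, from 28, 35.6 and 46.9 CPM to 72.5, 38.5 and 50.9 CPM (log2 0.554, SE 0.29, adjusted p = 0.15). Replicate 3 of injured CD45+ stood above the other 2 in many members. Cdc6 was at 1.26, 2.45 and 12.4 CPM there, Rrm2 at 1.52, 0.735 and 11.7 CPM and Tyms at 2.53, 4.41 and 17.8 CPM. Without that library 26 genes were called lower, and without replicate 1 or replicate 2 of injured CD45+ 16 were. Rrm2 (adjusted p = 0.0487), Rpa1 (0.047) and Rfc5 (0.0379) were called close to the threshold and lost the call in 23, 19 and 12 of 31 other settings, with adjusted p up to 0.301, 0.41 and 0.216. Cdc45 and Rrm1 lost it without replicate 1 of uninjured CD45+ (0.094 and 0.0869) or replicate 1 or 2 of injured CD45+ (up to 0.0891 and 0.119). Tk1 lost it without replicate 1 of uninjured or of injured CD45+ (0.0525 and 0.0796).

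The makeup of the CD45+ libraries moved with these falls. The B cell list summed to 2180, 3402 and 5688 CPM in uninjured and to 111, 118 and 198 CPM in injured libraries. The T cell list went from 186, 326 and 414 CPM to 14.4, 8.82 and 21.7 CPM, and the NK cell list from 141, 290 and 341 CPM to 10.4, 5.88 and 2.34 CPM. The neutrophil list went from 2253, 1124 and 3599 CPM to 7014, 10710 and 8252 CPM, without overlap. All 6 genes of each of these 4 lists had counts in both conditions. The part of this shift in the falls of the replication genes was not tested.

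**Figure D4:**
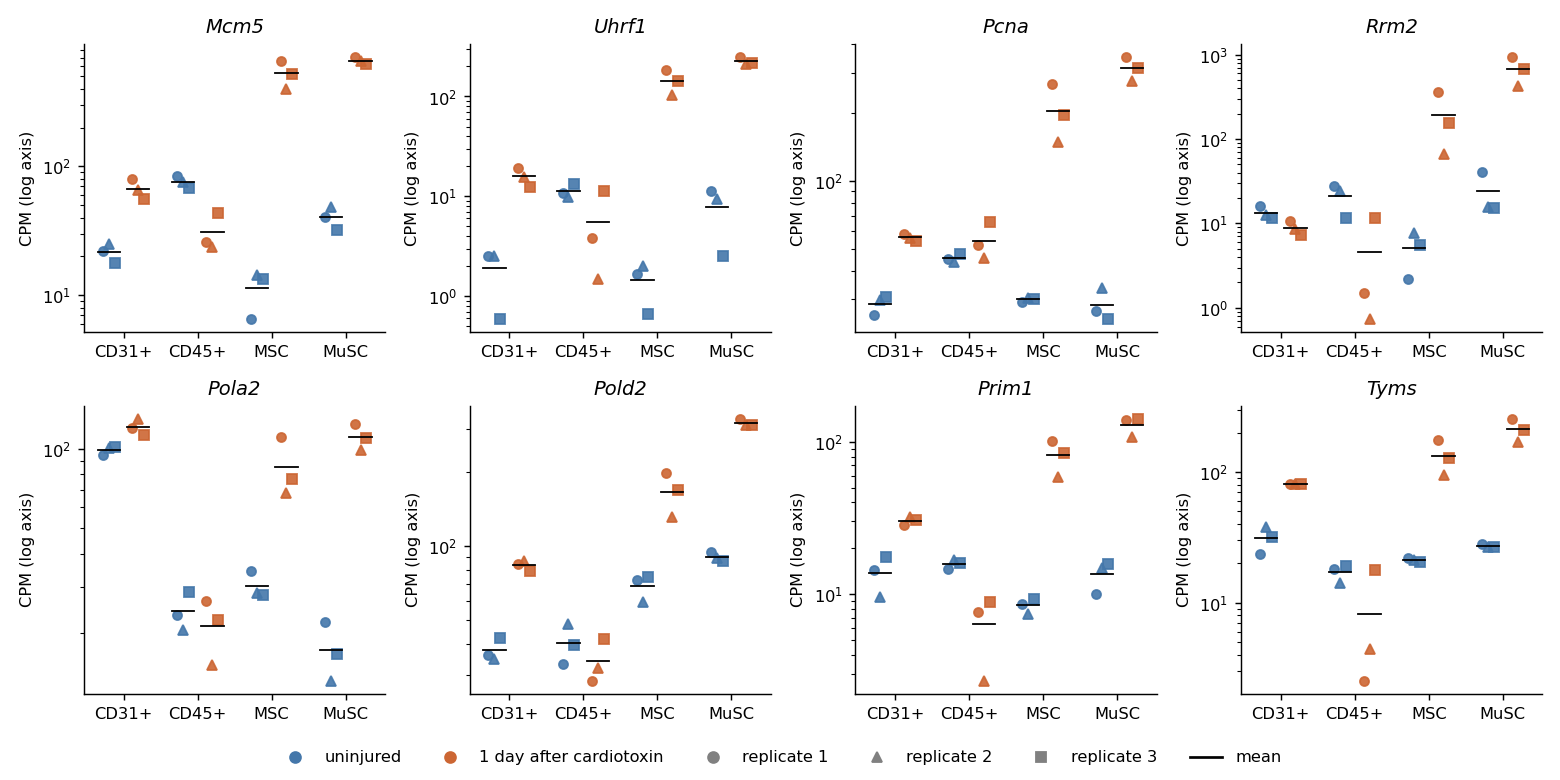
CPM of 8 genes in each library on log axes, by population and condition, with the mean as a line and a marker shape per replicate number. Mcm5, Uhrf1, Pcna and Rrm2 reach their highest levels in injured MSC and MuSC, Pola2 is as high in CD31+ cells, and replicate 3 (squares) is the highest injured CD45+ library for Uhrf1, Rrm2 and Tyms.

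Tests of the difference between populations set these patterns apart. The injury effect differed over the 4 populations for all 44 genes (35.9% of all genes). It was larger in MSC than in CD45+ cells for 44 (25.1% of all genes differed in either direction) and larger in MuSC than in CD45+ cells for 44 (24.4%). It was larger in MSC than in CD31+ cells for 38 (12.6%), in MuSC than in CD31+ cells for 37 (12.3%), and in CD31+ than in CD45+ cells for 28 (17.1%). The pairs share libraries, so these counts are not independent. In none of the pairs named in this paragraph was a member called in the opposite direction.

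All 44 genes rose in MSC and MuSC, so the 16 that rose in CD31+ cells rose there as well (8.44% of all genes rose in these 3). For the same reason all 21 that fell in CD45+ cells rose in MSC (1.96% of all genes). These sets overlap in 7 genes, and whether unrelated sets would overlap as much was not tested. Of all genes, 0.363% had the pattern of rises in CD31+, MSC and MuSC and a fall in CD45+ cells. That share does not measure the overlap, since all members rose in MSC and MuSC. The 7 genes were Mcm3, Mcm5, Rfc5, Pola1, Prim1, Prim2 and Rpa2. Among them are both primase subunits and the catalytic subunit of the polymerase they work with. Prim1 went from 14.4, 9.60 and 17.4 CPM to 28.5, 31.8 and 30.5 CPM in CD31+ cells (log2 1.13, SE 0.271, adjusted p = 0.00316), and from 14.7, 16.8 and 16.0 CPM to 7.58, 2.69 and 8.88 CPM in CD45+ cells (log2 -1.30, SE 0.309, adjusted p = 0.00202). The difference of these effects was 2.43 (SE 0.411, adjusted p = 0.00017). The groups did not overlap in either population. A further 9 genes rose in CD31+ cells, MSC and MuSC and were not called in CD45+ cells. Another 14 fell in CD45+ cells and were not called in CD31+ cells, and 14 were called only in MSC and MuSC by these tests. Shares of all genes were not determined for these sets. A gene that was not called can still have changed, and some calls lay close to the threshold, such as Rrm2 in CD45+ cells (adjusted p = 0.0487 by edgeR). No member rose in all 4 populations, as 5.01% of all genes did.

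The test over the 4 uninjured groups passed for 34 of the 44 genes, a share near that of all genes (78.7%). CD45+ cells were above each other population for 8 genes (13.7% of all genes), namely Cdt1, Mcm2, Mcm3, Mcm5, Gins2, Pcna, Rfc2 and Rpa2. MuSC were above each other population for Orc6, Rfc5, Pold2 and Dut (7.88% of all genes) and CD31+ cells for Pola2 (9.92%). MSC were below each other population for Mcm3, Mcm5 and Chaf1b (3.18%), and CD31+ cells for Gins2 and Rpa2 (5.8%). MSC were above the others for none of the 44 (9.09% of all genes), and the MSC sum of 776 CPM ± 25.3 (SD, n = 3) was the lowest of the 4 uninjured sums. In MSC against MuSC 21 of the 44 were called (40.7% of all genes), 20 of them lower in MSC (17.4%).

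Compared per kilobase of the main transcript, Orc6 (61.0 CPM per kilobase ± 12.4, SD, n = 3) and Pold2 (55.1 ± 2.32) were the highest of the 44 in uninjured MuSC, and Mcm10 (0.343) the lowest. After injury the order in MuSC was led by Rrm2 (310 CPM per kilobase ± 115), Mcm3 (227 ± 25.5), Mcm6 (222 ± 33.0) and Mcm7 (217 ± 19.4). The 3 MCM subunits lay within each other's SD, and the SD of Rrm2 reached all of them. In injured MSC Mcm6 (181 ± 41.7), Mcm5 (156 ± 39.0) and Mcm3 (152 ± 31.2) led, also within their spread, and Orc1 (4.85) was the lowest. Pola2 led in uninjured CD31+ cells (41.0 ± 1.59).

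After injury all 44 genes differed between the populations (81.2% of all genes). By the mean alone, injured MuSC were the highest of the 8 groups for 41 genes, injured MSC for Orc1 and Mcm4 and injured CD31+ cells for Pola2. The share of all genes with such an order was not determined. Some of these means lay close together, such as Gins3 at 21.3 CPM ± 2.91 in injured MuSC and 20.9 ± 3.89 in injured MSC (SD, n = 3). For Orc1 and Mcm4 the difference between injured MSC and MuSC did not pass the test (log2 difference 0.294, SE 0.394, and 0.193, SE 0.212). Pola2 was at 94.8 to 102 CPM in uninjured and 113 to 130 CPM in injured CD31+ cells, and the difference from injured MuSC did not pass (log2 0.125, SE 0.186, adjusted p = 0.594). MuSC were above each other injured population for 14 genes (8.63% of all genes), among them Rrm2, Pcna, Cdc45 and Chaf1b. CD45+ cells were below each other injured population for 23 genes (16.5% of all genes), among them 6 of the 6 helicase subunits Mcm2 to Mcm7. Injured CD31+ cells were below the others for Cdt1 (4.33%).

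The rest of the pathway was read from lists of other genes. Of 38 other replication genes, 31 rose in MSC (18.3% of all genes), 32 in MuSC (21.4%) and 3 in CD31+ cells (14.1%). None of them fell in these populations, and the count in CD31+ cells was below the share of all genes. In CD45+ cells 2 rose and 10 fell (16% and 18.5% of all genes). Asf1b, a histone chaperone, rose from 0.670, 2.69 and 1.33 CPM to 131, 40.0 and 83.6 CPM in MSC (log2 5.80, SE 0.611, adjusted p = 2.26e-07). Dnmt1, the maintenance methyltransferase that works with Uhrf1, rose from 14.3, 20.3 and 22.6 CPM to 146, 144 and 132 CPM in MuSC (log2 2.88, SE 0.271, adjusted p = 1.08e-08). Pole4, a small subunit of the leading strand polymerase, rose in CD31+ cells from 22.96, 28.8 and 33.9 CPM to 80.6, 101 and 73.3 CPM (log2 1.58, SE 0.168, adjusted p = 1.47e-07), in MSC (log2 1.73) and in MuSC (log2 1.37). Timeless, which steadies the fork, fell in CD45+ cells from 23.5, 22.0 and 28.1 CPM to 2.27, 1.23 and 7.24 CPM (log2 -2.75, SE 0.473, adjusted p = 0.000134).

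Other nucleotide genes were called higher more often than lower in all 4 populations. Of 30, 19 were higher in CD31+ cells against 2 lower (14.1% and 9.3% of all genes). The same counts were 11 and 2 for CD45+ cells (16% and 18.5%) and 23 and 3 for MSC (18.3% and 23.6%). For MuSC they were 26 and 2 (21.4% and 17.5%). Nme1, a nucleoside diphosphate kinase, rose in all 4: from 104, 116 and 122 CPM to 308, 299 and 282 CPM in CD45+ cells (log2 1.38, SE 0.12, adjusted p = 6.93e-09) and by 2.18, 2.54 and 2.71 on the log2 scale in CD31+, MSC and MuSC. Dctd, which makes deoxyuridylate for Tyms, rose in CD31+ cells from 2.55, 0.847 and 0 CPM to 36.9, 49.1 and 30.6 CPM (log2 4.92, SE 0.463, adjusted p = 2.52e-08). Dctpp1, which removes stray deoxynucleotides, rose from 13.4, 10.3 and 12 CPM to 136, 85.7 and 123.1 CPM in MSC. The members of this list that fell included Samhd1, which breaks deoxynucleotides down, in CD31+ cells (log2 -1.08, adjusted p = 3.98e-07) and MSC (log2 -0.866). Also falling were the mitochondrial kinases Dguok, in CD45+ cells, MSC and MuSC, and Tk2, in CD45+ cells and MSC.

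Of 9 S phase cyclins and kinases, 9 rose in MSC (18.3% of all genes), 8 in MuSC (21.4%) and 1 in CD31+ cells (14.1%). In CD45+ cells 1 rose and 3 fell (16% and 18.5% of all genes). Ccne1, the cyclin that starts S phase with Cdk2, rose from 0.838, 1.57 and 0.888 CPM to 106, 41.1 and 70.8 CPM in MSC (log2 6.05, SE 0.565, adjusted p = 2.02e-08) and from 4.26, 5.76 and 2.55 CPM to 153, 93.8 and 112 CPM in MuSC (log2 4.88, SE 0.488, adjusted p = 5.66e-08). Cks1b, a small partner of the cell cycle kinases, was the 1 gene of the list that rose in CD31+ cells, from 5.10, 3.39 and 0.590 CPM to 16.3, 8.73 and 9.84 CPM (log2 1.86, SE 0.354, adjusted p = 0.000335).

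Of 20 genes of mitosis, none rose or fell in CD31+ cells (14.1% and 9.3% of all genes did). Their median log2 fold change there was -0.521, and 1 had an unadjusted p below 0.05 by edgeR. In MSC 17 rose (list median 3.43, 18.3% of all genes rose) and in MuSC 18 (list median 3.49, 21.4% of all genes). In CD45+ cells 15 fell (list median -3.55, 18.5% of all genes fell). Top2a, which untangles sister chromosomes, was at 2.34, 1.41 and 0.590 CPM before and 0.923, 1.16 and 0.952 CPM after injury in CD31+ cells, near the value of 3 counts. In MSC Top2a rose from 1.17, 4.70 and 0.222 CPM to 84.7, 16.9 and 51.2 CPM (log2 4.68, SE 0.861, adjusted p = 0.000249). Single libraries moved these counts: without replicate 1 of the injured group 11 rose in MSC and 11 in MuSC, and in CD45+ cells 6 and 7 fell without injured replicates 1 and 2. Without replicate 1 of uninjured CD45+ 10 fell.

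**Figure D5:**
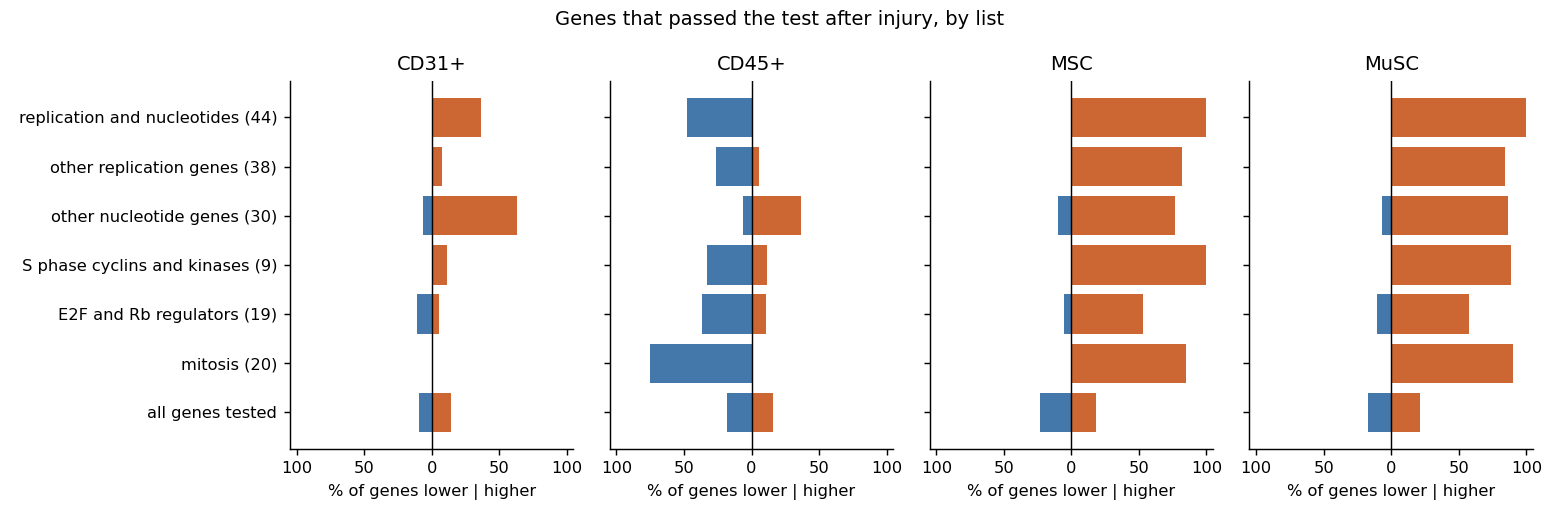
Share of each gene list that passed the test after injury, higher to the right and lower to the left, in the 4 populations, with the list sizes in brackets and all 16263 genes tested in the bottom row. In CD31+ cells the bar is longest for other nucleotide genes (19 of 30) and absent for mitosis (0 of 20), and in CD45+ cells lower calls outnumber higher ones in every list except other nucleotide genes.

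The E2F and Rb genes changed in both directions. Of 19, 10 were higher and 1 lower in MSC (18.3% and 23.6% of all genes), against 11 and 2 in MuSC (21.4% and 17.5%). In CD31+ cells 1 was higher and 2 lower, near or below the shares of all genes (14.1% and 9.3%). In CD45+ cells 2 were higher and 7 lower (16% and 18.5% of all genes). Tfdp1, the partner of E2F proteins on DNA, rose from 32.5, 29.1 and 21.5 CPM to 124, 91.5 and 104 CPM in MSC (log2 1.94, SE 0.203, adjusted p = 4.94e-08) and by 2.19 in MuSC. Rbl2 (p130), the Rb family member known for resting cells, fell in all 4 populations, with log2 fold changes of -0.899 (CD31+), -1.23 (CD45+), -1.35 (MSC) and -0.983 (MuSC), with adjusted p between 0.000211 and 0.0166. In CD31+ cells that call was lost without replicate 1 of uninjured or replicate 2 of injured CD31+ (adjusted p = 0.0916 and 0.0858 by edgeR). The related Rbl1 (p107) rose in MSC and MuSC by 2.52 and 3.42.

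E2f1, an activator of replication genes, changed differently in MSC and MuSC. In MuSC it went from 4.07, 5.08 and 7.66 CPM to 33.3, 32.8 and 30.5 CPM (log2 2.51, SE 0.352, adjusted p = 3.99e-06). In MSC it was already at 43.2, 40.5 and 32.9 CPM before injury and at 32.7, 27.9 and 31.6 CPM after it (log2 -0.34, SE 0.303, adjusted p = 0.393). The uninjured levels of MSC and MuSC differed (log2 2.78, SE 0.354, adjusted p = 6.81e-07), and so did the changes (log2 difference -2.85, SE 0.465, adjusted p = 0.000277), a call that held in the 30 other settings in which it was fitted. In CD31+ cells E2f1 stayed between 0.776 and 4.52 CPM in all 6 libraries.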

How the data were processed

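RNA from 24 sorted libraries, 4 populations in 2 conditions with 3 replicates each, was sequenced as PCR-amplified, oligo(dT)-primed cDNA without strand information, per the labels' protocols. The deposited table holds the authors' raw read count per gene symbol. Per the submitters' processing notes STAR 2.5.4 and featureCounts were used with mm10; neither the annotation nor the handling of multimapping or overlapping reads is given in the sources used here. Fragments amplified by PCR without molecular identifiers are not independent molecules, so the value of 3 counts covers counting error only.

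The counts of all genes were fitted in 1 model of 8 group means with edgeR 4.0.16 (filterByExpr, TMM, robust quasi-likelihood test, 16 residual degrees of freedom), adjusted by Benjamini-Hochberg over 16263 genes and called below 0.05. SEs were derived from the F statistic and are approximate. CPM used TMM-scaled totals, and per-kilobase values the main GENCODE transcript. The steps were tested on simulated data. Alternatives were RLE scaling, DESeq2 1.42.0, limma voom 3.58.1, no filter, a replicate block, the 6 libraries of a population alone and leaving out each library in turn. The 44 genes and all lists were chosen with earlier results of these data known. All 44 genes could be named. From the other lists, genes with up to the 4 smallest adjusted p in each direction of a comparison were named, and some are also given for the other populations.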

Additional observations from a re-analysis of the deposited data

Results flagged for a closer look

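The injury effect differed between populations for 44 of the 44 genes by the edgeR test over all 4 populations (35.9% of all genes). By pair of populations the effects of 28 genes differed between CD31+ and CD45+ cells (17.1% of all genes). Between CD31+ cells and MSC 38 differed (12.6%), and between CD31+ cells and MuSC 37 (12.3%). Between CD45+ cells and MSC 44 differed (25.1%), and between CD45+ cells and MuSC 44 (24.4%). Between MSC and MuSC 2 differed, no larger a share than among all genes (7.73%). The pairs share libraries.

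For the 7 genes that rose in MSC, MuSC and CD31+ cells and fell in CD45+ cells, the effect in CD45+ cells minus that in MSC was -5.53 on the log2 scale for Mcm3, -6.86 for Mcm5, -3.4 for Rfc5, -3.59 for Pola1, -4.58 for Prim1, -3.09 for Prim2 and -3.74 for Rpa2. All 7 differences passed the test. The B, T and NK cell lists fell and the neutrophil list rose in the same injured CD45+ libraries, and their part in these differences was not tested.

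Between MSC and MuSC the effects of Mcm5 (1.51), Pola2 (-1.17) and the regulator E2f1 (-2.85) differed, given as MSC minus MuSC on the log2 scale. The call for Pola2 was lost when some single libraries were left out, any uninjured MSC library among them. That for E2f1 held in the other settings in which it was fitted. E2f1 was high in uninjured MSC and low in uninjured MuSC.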

How the results depend on the processing

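All 44 genes were called higher in MSC and in MuSC in all 31 other settings for each population. No member that was called in the main fit or in another setting changed direction between them. Direction was not compared where neither fit called the gene. In CD31+ cells 14 (limma voom) to 21 (no filter) genes were higher. There 1 gene, Cdc6, was lower with DESeq2, without the filter and with the 6 libraries alone, and 0 to 1 with single libraries left out. In CD45+ cells 1 gene (Cdt1) was higher without the filter, and 13 were lower with limma voom in place of 21, with 16 to 26 when single libraries were left out. The difference of CD31+ and CD45+ effects was called for 18 genes with limma voom in place of 28 (22 to 30 with single libraries left out). That of MSC and MuSC was called for 4 with DESeq2, 7 without the filter and 2 to 7 with single libraries left out. A setting chosen after seeing the data left out both injured MuSC libraries with most Pdgfra, and it was then called for 1. That fit has 1 injured MuSC library, which is assumed to vary like the other groups. The cause of these moves was not tested.

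Deviations of same-numbered libraries correlated at -0.0801 to 0.0928 between both conditions of a population. Between injured populations 4 of 18 same-numbered pairs were over 0.1 (up to 0.183) and 0 of 36 others were, and between uninjured ones 1 of 18 and 0 of 36. The median correlation between injured populations was 0.0242 for same-numbered pairs and -0.0124 for others. Between uninjured populations it was 0.0239 and -0.0125. Same-numbered libraries of a condition thus leaned towards alike deviations, and a shared source was not tested. The labels name no shared mouse, so the numbers were not used to pair libraries in the main fit. With the replicate number as a block, 16 genes were higher in CD31+ cells, 21 lower in CD45+ cells, 44 higher in MSC and 44 in MuSC. The blocked fit called 27, 38, 36, 44, 44 and 3 genes for the 6 pairs in the order above, so it moved the pair of MSC and MuSC from 2 to 3. Depth limits genes at a few counts, such as Mcm10 in uninjured MSC.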
